A study of Homo sapiens with 27 samples.

Results

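The CXCR2 ligand chemokines CXCL1, CXCL2, CXCL3, CXCL5, CXCL6 and CXCL8 were followed through read counts of 3 human prostate cancer cell lines after CRISPR targeting of RIPK2, the kinase that relays signals from the NOD receptors. They are 6 of the 27546 distinct gene symbols in the 3 count tables and were taken by symbol. The DU145 and PC3 tables list all 6 of them. The 22Rv1 table lists 4, without CXCL1 and CXCL6. The genes were selected on their levels in the control cells and on the difference of each RIPK2 guide from control, so those values are given as a description without a test, and only the direct comparison of one RIPK2 guide with the other is tested for them. The filter on low counts kept all 6 genes in DU145, all 6 in PC3 and 0 of the 4 in 22Rv1.

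These chemokines are small secreted proteins with a glutamate-leucine-arginine motif that bind the receptor CXCR2 on neutrophils and endothelial cells; CXCL6 and CXCL8 also bind CXCR1. Epithelial cells make them when Toll-like, interleukin-1, interleukin-17 or TNF receptors activate the transcription factor NF-kB. Their transcripts are short lived, because AU-rich elements in them recruit decay proteins.

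The lines were 22Rv1, DU145 and PC3, all established lines from prostate carcinoma. Each was represented by cells with control gRNA 1, whose genotype is labelled wild type, and by cells with either of 2 RIPK2 guides, each group in 3 libraries (27 in all). The RIPK2 guides were gRNA 1 and gRNA 10 in 22Rv1, and gRNA 2 and gRNA 10 in DU145 and PC3. The labels do not say whether a group is a clone or a pool, nor whether its libraries come from separate cultures, so the p-values measure the spread between these libraries, which may be technical. Replicates are numbered as in the sample titles; library names number some of them differently. Libraries held 17958558 to 20650819 counts.

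RIPK2 itself, the targeted gene, was checked first. In 22Rv1 it stood at 15.8 to 18.2 CPM (read counts scaled to the normalised size of each library) in control cells, 8.32 to 9.42 with gRNA 1 and 5.20 to 5.58 with gRNA 10. In DU145 it stood at 39.4 to 44.4 CPM in control cells, 9.87 to 13.3 with gRNA 2 and 33.4 to 36.4 with gRNA 10. In PC3 it stood at 59.3 to 62.4 CPM in control cells, 20.1 to 21.7 with gRNA 2 and 25.5 to 28.3 with gRNA 10. The transcript was lower than in any control library with every guide, but in DU145 with gRNA 10 it was -0.29 ± 0.11 (SE) on the log2 scale and did not pass an adjusted p of 0.05 (edgeR quasi-likelihood test, adjusted p = 0.0614). That call depended on the fit: over 15 alternatives the adjusted p ran from 0.000576 to 0.184, and it was 0.0235, 0.0311 and 0.0140 without gRNA 2 replicate 1, 2 or 3 (edgeR). A transcript level does not show whether the protein is lost. Libraries that stood apart were 22Rv1 gRNA 1 replicate 3, with 16.7% of its counts on mitochondrial genes, and DU145 gRNA 2 replicate 3, whose values are given below with and without it.

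The promoters of the 6 genes are shown because they carry one NF-kB site in common. NF-kB is already known to control these genes, so the site is given as a description. RefSeq (GRCh38.p14) gives a promoter window of 300 bases, 250 before to 50 after the start, for all 6. The stretches below run 5′ to 3′ from base -140 to base 10 counted from the start, with capitals marking the NF-kB letters GGAATTTCC. They are CXCL1 at chr4:73869253-73869402 (plus strand), CXCL2 at chr4:74099186-74099335 (minus strand), CXCL3 at chr4:74038680-74038829 (minus strand), CXCL5 at chr4:73998668-73998817 (minus strand), CXCL6 at chr4:73836538-73836687 (plus strand) and CXCL8 at chr4:73740429-73740578 (plus strand).
CXCL1: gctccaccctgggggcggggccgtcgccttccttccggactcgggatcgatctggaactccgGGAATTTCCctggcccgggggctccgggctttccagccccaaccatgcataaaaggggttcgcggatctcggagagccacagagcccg
CXCL2: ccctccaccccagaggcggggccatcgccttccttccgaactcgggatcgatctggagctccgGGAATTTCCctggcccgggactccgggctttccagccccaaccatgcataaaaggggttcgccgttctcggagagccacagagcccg
CXCL3: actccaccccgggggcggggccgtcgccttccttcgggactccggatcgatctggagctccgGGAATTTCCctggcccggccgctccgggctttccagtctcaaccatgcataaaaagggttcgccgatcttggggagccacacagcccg
CXCL5: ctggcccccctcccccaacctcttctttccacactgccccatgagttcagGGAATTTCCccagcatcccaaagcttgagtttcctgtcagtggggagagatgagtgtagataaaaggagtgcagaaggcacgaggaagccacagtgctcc
CXCL6: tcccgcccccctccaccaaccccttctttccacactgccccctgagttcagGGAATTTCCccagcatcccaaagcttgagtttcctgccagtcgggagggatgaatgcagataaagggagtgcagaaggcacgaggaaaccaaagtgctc
CXCL8: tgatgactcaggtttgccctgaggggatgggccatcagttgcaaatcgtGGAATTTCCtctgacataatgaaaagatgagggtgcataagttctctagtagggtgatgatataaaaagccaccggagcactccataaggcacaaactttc
GGAATTTCC was searched on both strands and occurs once in each of the 6 windows, on the sense strand. Its first base lies at -78 in CXCL1, -77 in CXCL2, -78 in CXCL3, -90 in CXCL5, -89 in CXCL6 and -91 in CXCL8. Of all 35116 promoters in the table, 162 (0.461%) hold these letters. The 6 matches are not independent of one another, because several of these promoters are close copies (identities below). A wider NF-kB consensus that overlaps the same site is matched, as GGGAATTTCC, in 5 of the 6 windows, all but that of CXCL8, and in some form on either strand in 5.68% of all promoters. The AP-1 letters TGANTCA, which read the same on both strands, occur in 1 of the 6, CXCL8, from -137 to -131, and in 7.71% of all promoters. A TATAAA box on the sense strand also occurs in 1 of the 6, CXCL8, from -31 to -26, and in 7.33% of all promoters. Only these exact letters were searched, and the other windows hold the shorter run ATAAA at about the same distance from the start. The matches describe letters in these windows; whether a factor bound there was not measured.

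The genes lie in one cluster on chromosome 4, in the order CXCL8, CXCL6, CXCL1, CXCL5, CXCL3 and CXCL2, over 358.626 kb (RefSeq). In GENCODE 29 (GRCh38) CXCL8 spans 73740506 to 73743716 on the plus strand, CXCL1 73869393 to 73871242 on the plus strand and CXCL5 73995642 to 73998779 on the minus strand. CXCL1, CXCL2 and CXCL3 are recent copies of one another: their coding sequences, each of 321 bases, are 90.7% to 94.4% identical, and their promoters 76.0% to 87.0%. CXCL5 and CXCL6, with coding sequences of 342 bases, are the other close pair, at 87.4% in the coding sequence and 84.2% in the promoter. CXCL8 is the most distant, at 58.3% to 60.8% in the coding sequence. The libraries were read as pairs of 150 bases, and none of the 150-base windows of the longest coding transcript of any of the 6 occurs exactly in a transcript of another chemokine of the CXCL, PPBP and PF4 families (GENCODE 29). The longest run in common is 97 bases, between CXCL2 and CXCL3, so counts of CXCL1, CXCL2 and CXCL3 remain uncertain where reads were shared or dropped by the counting. All 6 transcripts are rich in ATTTA, the core of AU-rich decay elements: CXCL2 holds 10 copies, or 8.21 per kb of transcript, a density reached by 0.0203% of 19669 coding genes. CXCL3 holds 7 (6.51 per kb), CXCL8 holds 10 (5.86 per kb) and CXCL1 holds 5 (4.56 per kb), while CXCL5 holds 11 (4.33 per kb) and CXCL6 the lowest density, 6 copies or 3.49 per kb, which 4.17% of coding genes reach.

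Control levels differed between the lines. In 22Rv1 the listed genes were close to absent: CXCL5 had 0, 0 and 1 counts in the control libraries, CXCL2 had 0, 1 and 1, CXCL8 had 0, 2 and 0, and CXCL3 had 3, 2 and 1. The RIPK2 guides left them there. With gRNA 1 no library exceeded 1 count for any of the 4 genes, and with gRNA 10 the highest values were 5 counts for CXCL3 and 3 for CXCL8. A library floor of 3 counts corresponds to 0.154 to 0.167 CPM in this line, so no fold change is given.

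In DU145 and PC3 control cells the summed level of the 6 genes was alike, 45.96 ± 1.18 CPM and 45.90 ± 1.47 CPM (SD, n = 3 in each line), although the tables were normalised separately and no test was made across them. The genes that made up the sum were not the same. Per kb of exon, DU145 control cells had the order CXCL2 at 15.4 ± 0.557 CPM per kb, CXCL1 at 5.74 ± 0.442, CXCL8 at 4.51 ± 0.348, CXCL3 at 1.17 ± 0.0690, CXCL6 at 1.15 ± 0.177 and CXCL5 at 0.0379 ± 0.0187. Only CXCL3 and CXCL6 overlapped among neighbours in that order, which depends on the exon lengths used. PC3 control cells had the order CXCL1 at 14.6 ± 0.503 CPM per kb, CXCL6 at 7.997 ± 0.426, CXCL8 at 3.52 ± 0.338, CXCL2 at 0.431 ± 0.132, CXCL3 at 0.247 ± 0.0667 and CXCL5 at 0.150 ± 0.0692. There the last 3 genes were not separated from their neighbours by the libraries' ranges. CXCL2 thus made up 54.9% of the summed level per kb in DU145 and 1.60% in PC3, and CXCL6 made up 4.11% and 29.7%.

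**Figure D1:**
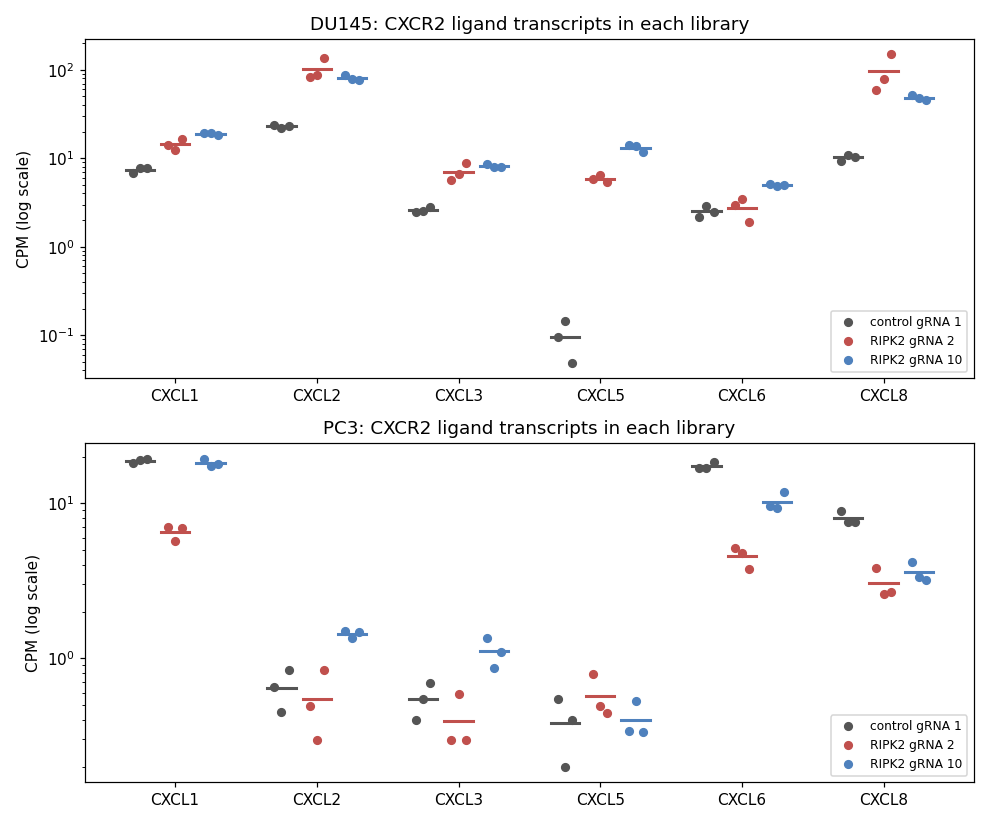
CPM (log axis) of each CXCR2 ligand in the control gRNA 1, RIPK2 gRNA 2 and RIPK2 gRNA 10 libraries of DU145 (top) and PC3 (bottom); points are the 3 libraries of a group and horizontal lines their mean. In DU145 the guide libraries lie above control for every gene but CXCL6 with gRNA 2, and in PC3 CXCL6 and CXCL8 lie below control with both guides.

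DU145 cells with either RIPK2 guide had more CXCR2 ligand transcript. Summed over the 6, gRNA 2 libraries averaged 228.5 ± 79.5 CPM (SD, n = 3) and gRNA 10 libraries 175.3 ± 11.3. The wide spread with gRNA 2 came from replicate 3, at 319 CPM against 171 and 196 in the other libraries. In bulk samples, more cells making a transcript and more transcript per cell cannot be told apart.

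The CXCL1, CXCL2 and CXCL3 group, known as the GRO chemokines, was higher in DU145 with both guides. CXCL1, first described as melanoma growth stimulating activity, stood at 6.77, 7.77 and 7.76 CPM in control, 14.2, 12.6 and 16.7 with gRNA 2, and 19.5, 19.3 and 18.3 with gRNA 10. All guide libraries were above all control libraries, by 0.96 ± 0.13 (log2 fold change ± SE) with gRNA 2 and 1.36 ± 0.13 with gRNA 10. CXCL2, a neutrophil attractant, stood at 23.7, 22.1 and 23.4 CPM in control, 82.7, 87.2 and 136 with gRNA 2, and 88.3, 79.0 and 76.7 with gRNA 10. It was the most abundant of the 6 per kb in all 3 groups of DU145, and its log2 fold changes were 2.15 ± 0.17 and 1.82 ± 0.17. CXCL3 stood at 2.50, 2.54 and 2.78 CPM in control, 5.66, 6.63 and 8.79 with gRNA 2, and 8.51, 7.99 and 7.91 with gRNA 10. Its log2 fold changes were 1.43 ± 0.18 and 1.64 ± 0.18, again with no overlap between guide and control libraries.

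CXCL5, which attracts neutrophils and promotes vessel growth, went from near the floor of detection to a clear level. Control libraries had 2, 3 and 1 counts, gRNA 2 libraries had 117, 132 and 98, and gRNA 10 libraries had 280, 273 and 237. The ratio to control, scaled for library size, was 61.2 with gRNA 2 (95% exact interval 27.8 to 168, counting error only) and 137 with gRNA 10 (62.5 to 374). The intervals are wide because the control rests on 6 counts in all. In the order per kb of exon, CXCL5 passed from last place in control to rank 4 with gRNA 10, at 5.20 ± 0.464 CPM per kb, above CXCL3 and CXCL6. Its place above CXCL3 depends on the length used. The merged exons of CXCL3 have 2219 bases and its longest coding transcript 1075, while CXCL5 has 2538 by either measure.

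CXCL6, which signals through CXCR1 as well as CXCR2, separated the guides in DU145. It stood at 2.16, 2.92 and 2.44 CPM in control, 2.93, 3.46 and 1.88 with gRNA 2, and 5.09, 4.84 and 5.01 with gRNA 10. The gRNA 2 libraries overlapped control (log2 fold change 0.14 ± 0.23), and the gRNA 10 libraries were all above it (0.99 ± 0.22). CXCL8, the interleukin-8 gene which attracts neutrophils through both receptors, had 196, 229 and 213 counts in control, 1197, 1630 and 2712 with gRNA 2, and 1038, 955 and 918 with gRNA 10. Every guide library was above every control library, with log2 fold changes of 3.23 ± 0.30 and 2.24 ± 0.29.

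Of the 6 genes in DU145, 5 were called higher with gRNA 2 and 0 lower, where 17.1% of 14908 tested genes were called higher and 17.0% lower at an adjusted p below 0.05 (edgeR). With gRNA 10, 6 were called higher and 0 lower, beside 20.2% and 19.8% of all tested genes. The genes were selected on this contrast, so nothing is read from these counts. Their median log2 fold change was 1.79 with gRNA 2 and 1.73 with gRNA 10, beside 0.01 and 0.00 over all tested genes. Both comparisons share the control libraries.

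DU145 gRNA 2 replicate 3 held the highest CXCL1, CXCL2, CXCL3 and CXCL8 of its group and the lowest CXCL5 and CXCL6. The same library had 356 CPM of the epithelial marker EPCAM against 151 and 151 in the other gRNA 2 libraries, and 2.89% mitochondrial counts against 1.75% and 2.12%. Their part in the chemokine values was not tested. Without it the gRNA 2 log2 fold changes were 0.85 for CXCL1, 1.88 for CXCL2, 1.24 for CXCL3, 5.90 for CXCL5, 0.35 for CXCL6 and 2.76 for CXCL8, and the calls were still 5 of 6.

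PC3 cells gave another picture: CXCL6 and CXCL8 were lower with both guides, CXCL1 with gRNA 2, and CXCL2 and CXCL3 were higher with gRNA 10. Summed over the 6, gRNA 2 libraries averaged 15.7 ± 1.67 CPM (SD, n = 3) and gRNA 10 libraries 34.9 ± 1.86, all below the control libraries. The guides differed most for the GRO chemokines. CXCL1 stood at 18.2, 19.0 and 19.5 CPM in control, 6.996, 5.72 and 6.97 with gRNA 2, and 19.2, 17.4 and 17.9 with gRNA 10. It was far below control with gRNA 2 (log2 fold change -1.52 ± 0.09) and overlapped control with gRNA 10 (-0.05 ± 0.07).

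CXCL2 and CXCL3 were scarce in PC3. CXCL2 had 13, 9 and 17 counts in control, 10, 6 and 17 with gRNA 2, and 31, 28 and 31 with gRNA 10. CXCL3 had 8, 11 and 14 counts in control, 6, 12 and 6 with gRNA 2, and 28, 18 and 23 with gRNA 10. With gRNA 2 both overlapped control (log2 fold changes -0.25 ± 0.36 and -0.47 ± 0.39), while with gRNA 10 all libraries were above control (1.15 ± 0.29 and 1.01 ± 0.31). CXCL5 had 11, 4 and 8 counts in control, 16, 10 and 9 with gRNA 2, and 7, 11 and 7 with gRNA 10. It overlapped control with both guides (0.58 ± 0.40 and 0.07 ± 0.43), unlike in DU145, although that difference between the lines was not tested.

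CXCL6 and CXCL8, the ligands of both receptors, were lower in PC3 with either guide. CXCL6 stood at 17.0, 16.9 and 18.5 CPM in control, 5.17, 4.78 and 3.76 with gRNA 2, and 9.57, 9.29 and 11.8 with gRNA 10. No guide library reached a control library, and the log2 fold changes were -1.93 ± 0.11 and -0.77 ± 0.09. CXCL8 stood at 8.89, 7.56 and 7.55 CPM in control, 3.84, 2.61 and 2.67 with gRNA 2, and 4.16, 3.37 and 3.22 with gRNA 10. It too was below control in every guide library, by -1.39 ± 0.14 and -1.16 ± 0.13.

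In PC3, 0 of the 6 were called higher and 3 lower with gRNA 2, where 32.1% of 14718 tested genes were called higher and 31.5% lower. With gRNA 10, 2 were called higher and 2 lower, beside 37.9% and 35.6% of all tested genes. As in DU145, nothing is read from these counts. The median log2 fold change of the 6 was -0.93 with gRNA 2 and 0.01 with gRNA 10, beside 0.01 and 0.01 over all tested genes. Within PC3 no library stood apart by depth or mitochondrial share, which ran from 2.90% to 4.69%, lowest in the gRNA 10 libraries; its part in the values was not tested.

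**Figure D2:**
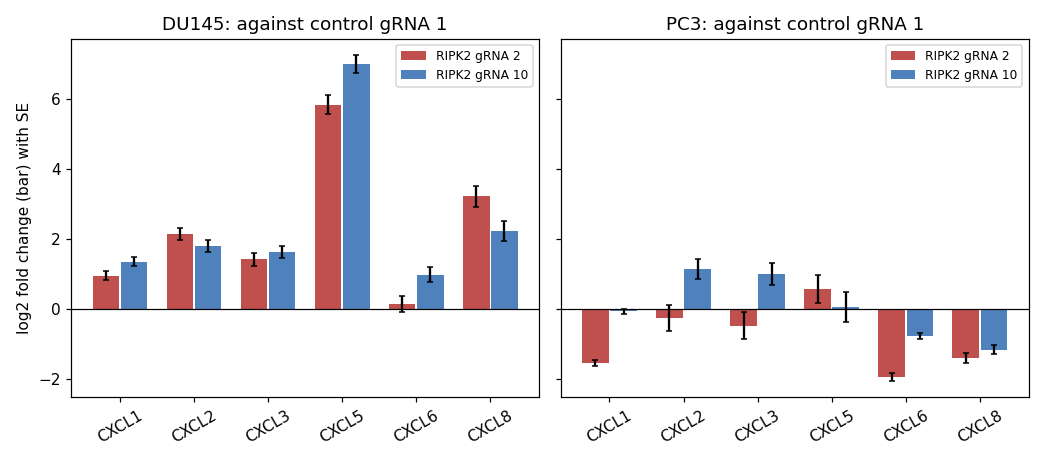
Log2 fold change (bars) with standard error of each CXCR2 ligand against control gRNA 1, for RIPK2 gRNA 2 and RIPK2 gRNA 10, in DU145 (left) and PC3 (right). CXCL5 reaches 5.84 and 7.01 in DU145, and CXCL1, CXCL6 and CXCL8 are negative with gRNA 2 in PC3.

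The comparison of one RIPK2 guide with the other asks whether cells with different guides to the same gene had the same chemokine level. The choice of genes did not name this contrast but drew on the same guide libraries, so its p-values are not independent of that choice. In DU145 the guides differed for 4 of the 6 genes: 1 was higher and 3 were lower with gRNA 2 than with gRNA 10, where 19.2% and 19.6% of all tested genes were called in those directions. CXCL5 was lower with gRNA 2 by -1.16 ± 0.14 (log2 ± SE; edgeR adjusted p = 0.00019), with all 3 libraries below those of gRNA 10. CXCL6 was lower by -0.84 ± 0.22 (edgeR adjusted p = 0.0114), also in 3 of 3 libraries. CXCL8 went the other way, 0.98 ± 0.27 higher with gRNA 2 (edgeR adjusted p = 0.0144).

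The CXCL8 difference rested in part on DU145 gRNA 2 replicate 3: without that library it was 0.52 (edgeR adjusted p = 0.00137), and it missed the threshold without gRNA 10 replicate 2 (adjusted p = 0.0512) or replicate 3 (0.0556). CXCL1 was lower with gRNA 2 by -0.40 ± 0.12 (edgeR adjusted p = 0.0265) and no longer passed in 7 of 15 alternative settings, where the adjusted p of the edgeR test ran up to 0.0830. CXCL2 differed by 0.33 with a 95% interval of 0.00 to 0.65 (edgeR adjusted p = 0.140), and CXCL3 by -0.21 with an interval of -0.54 to 0.11 (edgeR adjusted p = 0.327). CXCL3 passed the threshold without gRNA 2 replicate 3 (-0.40, edgeR adjusted p = 0.0141). RIPK2 itself differed between the same libraries by -1.56 ± 0.12 (edgeR adjusted p = 8.68e-06).

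In PC3 the guides also differed for 4 of the 6 genes, with 0 higher and 4 lower with gRNA 2, beside 36.5% and 36.9% of all tested genes. CXCL1 was lower with gRNA 2 by -1.47 ± 0.09 (edgeR adjusted p = 1.21e-15). CXCL2 was lower by -1.40 ± 0.30 (edgeR adjusted p = 0.000107) and CXCL3 by -1.48 ± 0.33 (edgeR adjusted p = 0.000227), so that the GRO chemokines differed by nearly the same amount. CXCL6 was lower by -1.16 ± 0.12 (edgeR adjusted p = 4.07e-10). In each of these 4 all gRNA 2 libraries were below all gRNA 10 libraries.

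CXCL5 and CXCL8 were not separated by the guides in PC3. The CXCL5 difference was 0.51 with a 95% interval of -0.25 to 1.28 (edgeR adjusted p = 0.239), and that of CXCL8 was -0.24 with an interval of -0.55 to 0.08 (edgeR adjusted p = 0.191). Without gRNA 2 replicate 1 the CXCL8 difference was -0.44 (edgeR adjusted p = 0.0285). These intervals do not show that the levels were equal. RIPK2 differed between the PC3 guides by -0.40 ± 0.06 (edgeR adjusted p = 1.05e-06).

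**Figure D3:**
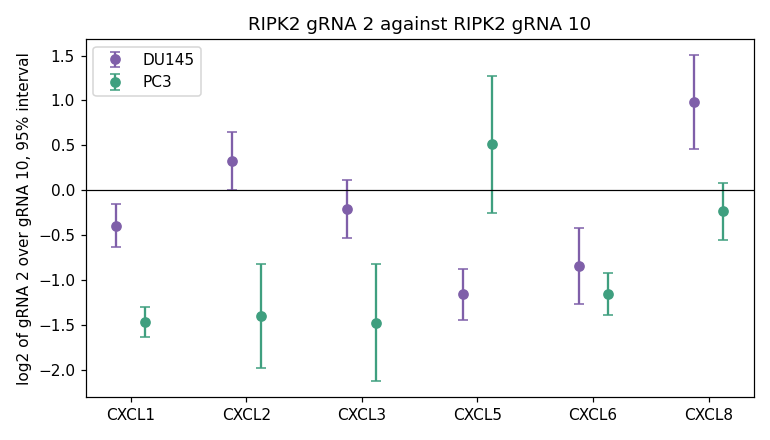
Log2 difference of RIPK2 gRNA 2 against RIPK2 gRNA 10 for each CXCR2 ligand, with 95% intervals, in DU145 and PC3. The intervals of CXCL1 and CXCL6 lie below 0 in both lines; that of CXCL8 lies above 0 in DU145 and spans 0 in PC3.

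Within DU145 the levels of 5 of the genes moved together over the 9 libraries, which share their groups and depth. Pearson's r of log2(CPM + 1) was 0.98 between CXCL2 and CXCL8 and 0.98 between CXCL1 and CXCL5, and 0.21 between CXCL6 and CXCL8, the lowest pair. Within PC3, r by the same measure was 0.90 between CXCL1 and CXCL6 and 0.85 between CXCL6 and CXCL8. It was -0.20 between CXCL2 and CXCL8, and -0.54 between CXCL1 and CXCL5, the lowest pair. CXCL2, CXCL3 and CXCL5 had at most 31 counts in a PC3 library, so counting error enters their r.

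The receptors of these ligands were not detected at a usable level in any of the lines. CXCR1, CXCR2 and the scavenger receptor ACKR1 had at most 2 counts in any library where they were listed, and 0 of the 3 could be tested. The PC3 table lists only CXCR2 of them. The remaining neutrophil or platelet ligands of the cluster, PPBP, PF4 and PF4V1, are listed in 0 of the 3 tables.

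Other chemokines did not share one direction. Of 22 listed by name, 3 could be tested in 22Rv1, 6 in DU145 and 6 in PC3. In 22Rv1 2 were called higher and 1 lower with gRNA 1, beside 25.6% and 22.9% of 15198 tested genes, and the same counts were found with gRNA 10, beside 20.0% and 20.6%. In DU145 0 were higher and 3 lower with gRNA 2, beside 17.1% and 17.0% of all tested genes. With gRNA 10, 4 were higher and 1 lower, beside 20.2% and 19.8%. In PC3 each guide had 4 higher and 1 lower. The shares there were 32.1% and 31.5% with gRNA 2, and 37.9% and 35.6% with gRNA 10. CCL20, the CCR6 ligand for Th17 cells, was 8.59 ± 0.675 CPM (SD, n = 3) in DU145 control, 31.0 ± 2.05 with gRNA 10 (edgeR adjusted p = 0.00266) and 16.1 ± 9.43 with gRNA 2 (edgeR adjusted p = 0.0803). CCL28, a mucosal epithelial chemokine, fell by 1.69 and 1.08 in DU145 with gRNA 2 and gRNA 10, in contrast to most CXCR2 ligands in the same libraries (edgeR adjusted p = 8.47e-06 and 6.62e-05). In PC3 CCL28 rose with gRNA 10 by 0.94 (edgeR adjusted p = 7.86e-09) and was -0.20 ± 0.13 with gRNA 2 (edgeR adjusted p = 0.185). CXCL16, the CXCR6 ligand, fell by 1.02 in DU145 cells carrying gRNA 2 (edgeR adjusted p = 0.000153). It rose in 22Rv1, by 0.61 with gRNA 1 and 0.74 with gRNA 10 (edgeR adjusted p = 0.000537 and 0.000153), and in PC3 by 0.26 with gRNA 2 (edgeR adjusted p = 0.00122).

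Among 27 cytokines, receptors and adaptors that induce these chemokines, calls went both ways. The shares of all tested genes called higher and lower, which these counts are to be read against, were 17.1% and 17.0% in DU145 with gRNA 2, 20.2% and 19.8% with gRNA 10, and in PC3 32.1% and 31.5%, and 37.9% and 35.6%. In DU145, of 19 tested, 3 rose and 8 fell with gRNA 2, and 3 rose and 6 fell with gRNA 10. In PC3, of 18 tested, 8 rose and 5 fell with gRNA 2, and 11 rose and 4 fell with gRNA 10. In 22Rv1, of 13 tested, 4 rose and 6 fell with gRNA 1, beside 25.6% and 22.9% of all tested genes. With gRNA 10, 3 rose and 3 fell there, beside 20.0% and 20.6%. The median log2 fold change of the list was -0.37 and -0.05 in DU145 and 0.16 and 0.50 in PC3, with gRNA 2 and gRNA 10.

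IL17RC, a subunit of the interleukin-17 receptor, was the one gene of these lists called in all 6 comparisons in one direction. With gRNA 1 in 22Rv1 and gRNA 2 in the other lines it fell by 0.72 (22Rv1), 0.71 (DU145) and 0.83 (PC3). With gRNA 10 it fell by 1.30 (22Rv1), 0.69 (DU145) and 0.39 (PC3), and the largest edgeR adjusted p of the 6 was 0.00876. MYD88, the adaptor of Toll-like and interleukin-1 receptors, fell in DU145 from 54.2 ± 0.465 CPM (SD, n = 3) to 24.4 ± 3.76 with gRNA 2 and 19.98 ± 1.44 with gRNA 10 (edgeR adjusted p = 6.70e-05 and 1.01e-05). It also fell in 22Rv1, by 1.05 and 0.72 (edgeR adjusted p = 5.23e-06 and 7.55e-05), and rose by 0.99 in PC3 with gRNA 10 (edgeR adjusted p = 2.00e-18). LTB, a TNF family ligand, rose in DU145 with gRNA 2 by 4.24 ± 0.61 (edgeR adjusted p = 0.000651) from 0.338 CPM, but not detectably with gRNA 10 (0.41 ± 0.86, edgeR adjusted p = 0.733). In PC3 LTB rose by 3.16 and 2.86 (edgeR adjusted p = 3.19e-06 and 2.00e-05), from at most 3 counts in a control library. TLR5, the flagellin receptor, rose in DU145 with gRNA 10 by 1.99 ± 0.37 (edgeR adjusted p = 0.00180), and was 0.44 ± 0.40 with gRNA 2 (edgeR adjusted p = 0.425). TLR2, a receptor for bacterial lipoproteins chosen after its values were seen, rose in DU145 from at most 3 counts in a control library to 43 to 57 with gRNA 2 and 17 to 34 with gRNA 10 (edgeR adjusted p = 9.84e-05 and 0.000464). In PC3 it rose by 1.56 and 2.10 (edgeR adjusted p = 4.59e-07 and 1.59e-10).

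NF-kB subunits, kinases and feedback genes were called higher more often than lower in DU145, where 17.1% and 20.2% of all tested genes were called higher with gRNA 2 and gRNA 10. Of 28 tested there, 11 rose and 3 fell with gRNA 2, and 16 rose and 1 fell with gRNA 10, with medians of 0.21 and 0.43. In PC3 8 rose and 8 fell with gRNA 2, and 11 rose and 9 fell with gRNA 10, with medians of -0.01 and 0.00, beside 32.1% higher and 31.5% lower, and 37.9% and 35.6%, over all tested genes, so these PC3 counts were near the background. In 22Rv1 3 rose and 4 fell with gRNA 1, beside 25.6% and 22.9% of all tested genes. With gRNA 10, 5 rose and 3 fell there, beside 20.0% and 20.6%. The CXCR2 ligands, which NF-kB is known to control, were higher in DU145 and mixed in PC3; the relation to these genes was not tested.

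BIRC3, a ubiquitin ligase of the TNF receptor complex, rose in DU145 from 23.2 ± 2.25 CPM to 104 ± 14.3 with gRNA 2 and 479 ± 32.2 with gRNA 10 (edgeR adjusted p = 2.15e-06 and 1.69e-08). In PC3 it stood at 2.44 CPM in control, 3.06 with gRNA 2 and 2.38 with gRNA 10 (edgeR adjusted p = 0.0783 and 0.850). NFKBIZ, a nuclear coactivator of secondary NF-kB targets, rose in DU145 by 2.60 ± 0.13 and 3.02 ± 0.13 (edgeR adjusted p = 1.54e-06 and 2.58e-07). It was -0.04 ± 0.06 in PC3 with gRNA 2 (edgeR adjusted p = 0.570) and rose by 0.95 with gRNA 10 (edgeR adjusted p = 2.21e-16). In 22Rv1, where the chemokines were close to absent, NFKBIZ rose by 1.84 with gRNA 1 and 0.61 with gRNA 10 (edgeR adjusted p = 3.19e-05 and 0.0290). BCL3 fell in DU145 by 0.53 and 0.49 (edgeR adjusted p = 0.00725 and 0.00806) and rose in 22Rv1 by 1.55 and 2.10 (edgeR adjusted p = 0.000392 and 4.89e-05). IKBKG, the regulatory subunit of the IkB kinase, fell in DU145 with gRNA 2 by 0.52 (edgeR adjusted p = 0.00943) and rose in PC3 with gRNA 10 by 0.76 (edgeR adjusted p = 2.80e-12).

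The feedback inhibitors TNFAIP3 and NFKBIA were chosen after their values were seen. TNFAIP3, the gene of A20, rose in DU145 by 2.35 and 1.85 (edgeR adjusted p = 8.59e-07 and 1.37e-06), rose in PC3 with gRNA 2 by 0.63 and fell there with gRNA 10 by 0.86 (edgeR adjusted p = 0.000220 and 4.98e-05). NFKBIA, which encodes the inhibitor IkB alpha, rose in DU145 by 1.16 and 0.97 (edgeR adjusted p = 8.47e-06 and 1.51e-05). It rose further in PC3, by 1.46 and 2.29 (edgeR adjusted p = 1.02e-09 and 6.58e-13), where CXCL6 and CXCL8 were lower.

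Secreted inflammatory products that are often induced with these chemokines were called higher more often than lower in DU145, beside 17.1% and 20.2% of all tested genes called higher. Of 15 tested there, 11 rose and 0 fell with gRNA 2, and 8 rose and 2 fell with gRNA 10, with medians of 1.45 and 0.83. In PC3, with the background shares given above, of 16 tested 4 rose and 5 fell with gRNA 2, and 8 rose and 6 fell with gRNA 10. In 22Rv1, of 8 tested, 3 rose and 0 fell with gRNA 1, beside 25.6% and 22.9% of all tested genes. With gRNA 10, 2 rose and 1 fell there, beside 20.0% and 20.6%. Complement C3 rose in DU145 from 21.1 ± 1.99 CPM to 181 ± 120 with gRNA 2 and 255 ± 7.10 with gRNA 10 (edgeR adjusted p = 0.00132 and 0.000395). SAA1, an acute phase protein, rose by 1.72, with overlap, and by 4.08 (edgeR adjusted p = 0.0450 and 0.000248). For both genes the lowest gRNA 2 library, at 778 counts of C3 and 9 of SAA1, was replicate 3, in which CXCL8 was highest.

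IL6 and LCN2, chosen after their values were seen, rose with the chemokines in DU145. IL6 went from 12.0 ± 0.448 CPM to 38.03 ± 15.5 with gRNA 2 and 28.9 ± 1.501 with gRNA 10 (edgeR adjusted p = 0.00106 and 0.00343). LCN2, the siderophore-binding lipocalin of neutrophils and epithelia, rose by 2.97 and 1.43 (edgeR adjusted p = 0.000833 and 0.0278). CSF1, the macrophage growth factor, was level with gRNA 2 (-0.03 ± 0.12, edgeR adjusted p = 0.853) and fell with gRNA 10 by 1.19 (edgeR adjusted p = 5.53e-05). IL32 passed in neither (-0.39 ± 0.23 and -0.54 ± 0.23, edgeR adjusted p = 0.225 and 0.0915).

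Factors that act on AU-rich transcripts were called in both directions, beside 17.0% to 37.9% of all tested genes called in a direction, depending on line and guide. Of 9 tested in every line, 2 rose and 1 fell in DU145 with gRNA 2, and 1 rose and 1 fell with gRNA 10. In PC3 4 rose and 1 fell with gRNA 2, and 3 rose and 3 fell with gRNA 10, and in 22Rv1 4 rose and 1 fell with gRNA 1, and 1 rose and 1 fell with gRNA 10. ZC3H12A, the endonuclease Regnase-1, which is itself an NF-kB target, rose in DU145 from 13.7 ± 1.48 CPM to 77.1 ± 8.93 and 86.1 ± 8.15 (edgeR adjusted p = 1.43e-06 and 4.00e-07). It rose in PC3 too, by 0.71 and 0.80 (edgeR adjusted p = 1.31e-06 and 7.80e-08). ARID5A, which stabilises IL6 mRNA, fell in DU145 with gRNA 2 by 0.56 (edgeR adjusted p = 0.0352) and was -0.23 ± 0.18 with gRNA 10 (edgeR adjusted p = 0.330). In DU145, HNRNPD was 0.35 and 0.14 and MAPKAPK2 -0.06 and -0.27, with edgeR adjusted p from 0.0690 to 0.690.

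Calls of these lists moved when a library that stood apart was left out. Without DU145 gRNA 2 replicate 3, the NF-kB list had 14 higher and 5 lower with gRNA 2, and 17 and 3 with gRNA 10. The co-secreted list had 12 higher and 1 lower, and 9 and 3, while the inducing list had 4 and 8, and 7 and 8, of 20 then tested. Without 22Rv1 gRNA 1 replicate 3, the co-secreted list had 2 higher and 3 lower with gRNA 1, and 3 and 2 with gRNA 10. Its direction with gRNA 1 in that line thus rested on this library.

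**Figure D4:**
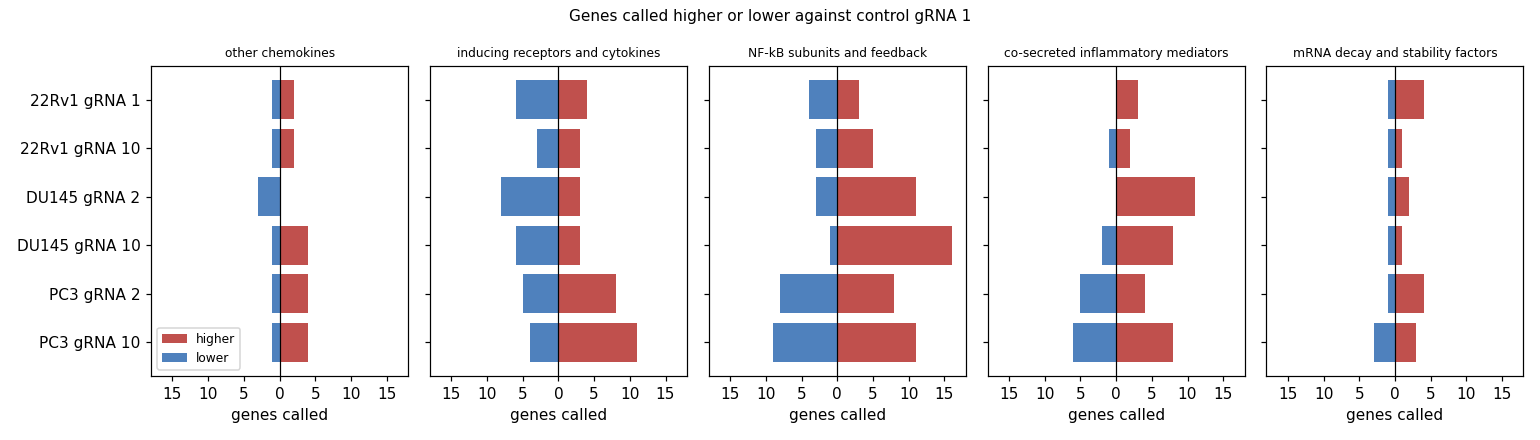
Number of genes called higher (right of 0) and lower (left of 0) against control gRNA 1 in each of 5 gene lists, for each line and RIPK2 guide. In DU145 the NF-kB list has 11 and 16 genes higher and 3 and 1 lower, and the co-secreted list has 11 and 8 higher and 0 and 2 lower.

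The cluster's neighbours show whether the chromosome region moved as a whole. RefSeq places 49 other genes and pseudogenes within 1 Mb of the chemokine span, of which 10 could be tested in 22Rv1, 8 in DU145 and 10 in PC3. In DU145 1 rose and 0 fell with gRNA 2, beside 17.1% and 17.0% of all tested genes. With gRNA 10, 1 rose and 3 fell, beside 20.2% and 19.8%. The medians were -0.05 and -0.14, beside 1.79 and 1.73 for the chemokines. The gene adjoining CXCL2, MTHFD2L, was 0.30 ± 0.15 and -0.05 ± 0.15 there (edgeR adjusted p = 0.134 and 0.820), and RASSF6, on the other side of CXCL8, was -0.35 ± 0.26 and 0.44 ± 0.24 (edgeR adjusted p = 0.324 and 0.179). Beyond them COX18 was 0.06 and -0.14, and ANKRD17 was -0.27 and -0.15, none of which passed the threshold in DU145.

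Farther out lie ligands of the EGF receptor family. In DU145 EREG rose by 0.61 with gRNA 2 and fell by 0.47 with gRNA 10 (edgeR adjusted p = 0.00388 and 0.0114). AREG and BTC fell with gRNA 10 by 1.02 and 1.24 (edgeR adjusted p = 2.56e-05 and 0.000178) and were -0.16 and -0.19 with gRNA 2 (edgeR adjusted p = 0.212 and 0.354). PARM1 rose with gRNA 10 by 1.24 (edgeR adjusted p = 0.000600) and was 0.36 with gRNA 2 (edgeR adjusted p = 0.169).

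In PC3, of 10 neighbours tested, 3 rose and 2 fell with gRNA 2, beside 32.1% and 31.5% of all tested genes. With gRNA 10, 2 rose and 4 fell, beside 37.9% and 35.6%, so these counts were near the background. EPGN rose by 1.46 with gRNA 2 and fell by 1.32 with gRNA 10 (edgeR adjusted p = 6.09e-07 and 0.000701). PARM1 did likewise, at 0.44 and -2.64, and LINC02562 rose by 0.94 with gRNA 2 (edgeR adjusted p = 0.000331, 1.15e-15 and 0.000146). AREG and BTC fell with gRNA 2 by 0.23 and 0.24 (edgeR adjusted p = 9.91e-05 and 0.0283), and with gRNA 10 AREG and EREG rose while BTC and RASSF6 fell. RASSF6 and MTHFD2L, the nearest tested genes, were -0.31 and -0.06 with gRNA 2 (edgeR adjusted p = 0.119 and 0.467), where CXCL8, CXCL6 and CXCL1 were at -1.39 to -1.93.

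In 22Rv1 the chemokines stayed near 0 counts. Of the 10 neighbours tested, 7 rose and 1 fell with gRNA 1, beside 25.6% and 22.9% of all tested genes. With gRNA 10, 5 rose and 0 fell, beside 20.0% and 20.6%. Albumin (ALB), a liver gene, rose from 105 ± 9.93 CPM to 2045 ± 42.5 with gRNA 10 (edgeR adjusted p = 6.03e-06) and was -0.07 ± 0.32 with gRNA 1 (edgeR adjusted p = 0.878). AFP rose from at most 2 counts in a control library to 2 to 13 with gRNA 1 and 32 to 43 with gRNA 10 (edgeR adjusted p = 0.00835 and 0.000147). AREG rose from 4 to 5 counts in a control library to 12.6 ± 1.42 CPM with gRNA 1 and 1.92 ± 0.786 with gRNA 10 (edgeR adjusted p = 3.13e-07 and 0.000101), and EPGN rose with gRNA 1 by 3.99 (edgeR adjusted p = 4.21e-05). Expression changed on both sides of the silent chemokine genes in this line.

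**Figure D5:**
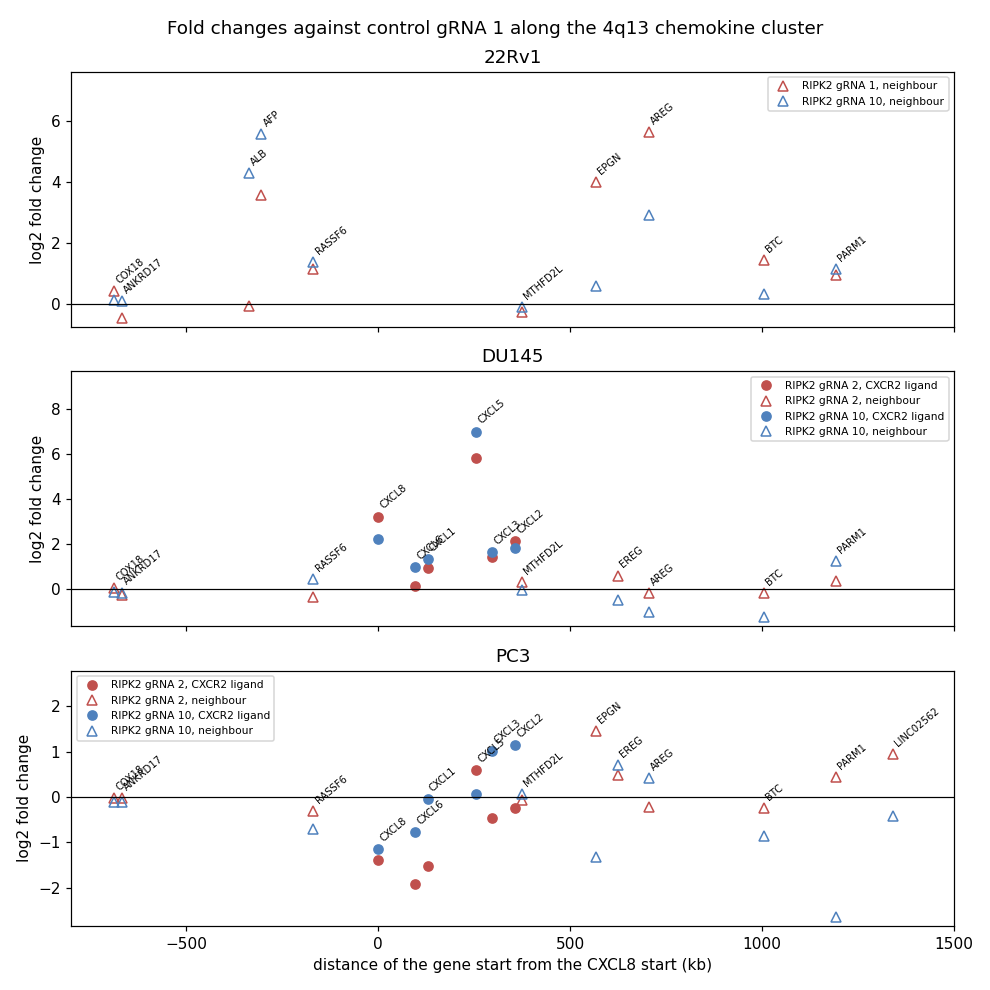
Log2 fold change against control gRNA 1 of every tested gene of the cluster and its surroundings, by distance of its start from that of CXCL8 in kb, for 22Rv1, DU145 and PC3; filled circles are CXCR2 ligands and open triangles neighbours. In DU145 the ligands reach 7.01 while the nearest neighbours lie between -0.35 and 0.44.

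Genes of like pattern were sought for CXCL5 and CXCL8 among 12023 genes, by Pearson's r of log2(CPM + 1) over the 27 libraries after the mean of each line was subtracted. The libraries share groups and depth, so r is a description. CXCL5 had at most 1 count in a 22Rv1 library and 16 in a PC3 library, so its r rests mostly on the DU145 groups. For CXCL5 these were GPX3 (r = 0.972), a secreted glutathione peroxidase, BIRC3 (0.958), PDZK1IP1 (0.947), GOLGA7 (0.922) and ENPP2 (0.912), the gene of autotaxin. GPX3 stood at 3.91 CPM in DU145 control, 21.8 with gRNA 2 and 59.3 with gRNA 10, the same order of groups as CXCL5. For CXCL8 they were MAL2 (0.920), JCAD (0.912), PRNP (0.903), TNIP1 (0.900) and ASAP2 (0.896). TNIP1, which binds A20, stood at 138 CPM in DU145 control, 289 with gRNA 2 and 279 with gRNA 10, and at 153, 122 and 113 CPM in the same groups of PC3, higher and lower in the same groups as CXCL8.

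Markers of other cells were looked at in the same libraries. The 4 epithelial markers EPCAM, KRT8, KRT18 and CDH1 were present in every group. Their sum moved with the guides too: in DU145 it was 796 to 841 CPM in control, 1486 to 2816 with gRNA 2 and 1430 to 1543 with gRNA 10, and in PC3 734 to 759, 921 to 972 and 1641 to 1759. KRT8 and KRT18 averaged higher with each guide in these lines, but the other epithelial markers did not all follow. In DU145 EPCAM averaged 58.1 CPM in control, 220 with gRNA 2 and 34.0 with gRNA 10, and CDH1 20.2, 28.2 and 14.9. In PC3 EPCAM averaged 40.7, 42.7 and 32.1 CPM, and CDH1 15.5, 17.1 and 20.9. The 8 leukocyte markers, 6 of them listed in 22Rv1 and PC3, summed to 0.649 to 6.55 CPM over all libraries, and PTPRC had at most 6 counts in any. In DU145 the leukocyte sum was 4.70 to 6.003 CPM in control, 1.16 to 2.93 with gRNA 2 and 5.04 to 6.55 with gRNA 10. Endothelial markers rose in PC3, to a sum of 21.3 to 23.3 CPM with gRNA 2 and 47.4 to 53.0 with gRNA 10 from 2.98 to 3.63, through KDR and PECAM1, with CDH5 and VWF at no more than 2 counts in any PC3 library. In DU145 the endothelial sum was 0.336 to 0.768 CPM in control, 0.166 to 1.09 with gRNA 2 and 2.20 to 2.69 with gRNA 10. The fibroblast sum in DU145 was 14.3 to 15.4 CPM in control, 5.86 to 12.5 with gRNA 2 and 25.03 to 31.4 with gRNA 10. In PC3 it was 64.5 to 66.5, 55.4 to 66.3 and 70.2 to 73.9 CPM in the same groups, and in 22Rv1 9.52 to 11.7 in control, 14.9 to 32.5 with gRNA 1 and 26.9 to 28.5 with gRNA 10. The part of these markers in the chemokine levels was not tested.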

How the data were processed

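Polyadenylated RNA was sequenced as strand-specific libraries, per the labels' protocols. The authors deposited whole-number read counts per gene symbol, 1 table per line; FastQC, STAR, edgeR and hg38 are named in the submitters' processing notes, and the annotation and counter are not given in the sources used here. Reads of near-identical copies may have been shared or dropped.

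Tables were read by symbol and mapped through the library names in the labels; 0 columns were left out. Each line's 9 libraries were fitted together in R 4.3.3 with edgeR 4.0.16 (filterByExpr, TMM, robust quasi-likelihood test, group only) and Benjamini-Hochberg adjustment over all genes tested in a contrast, with calls at an adjusted p below 0.05. TMM factors ran from 0.902 to 1.04. CPM uses the TMM library sizes, and levels per kb use the merged exon lengths of GENCODE 29, which can exceed the length of a single transcript. The interval of the CXCL5 ratio is exact and covers counting error only, as does the floor of 3 counts.

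The members and the gene lists were chosen with earlier results of these data known. Of each list, genes called in all 6 guide contrasts in one direction are named, and otherwise the 2 largest rises and falls by the smaller guide in DU145 where some group averages 100 counts or more; every tested neighbour within 1 Mb is named, as are the 5 genes most like CXCL5 and the 5 most like CXCL8 by r. Alternatives were DESeq2 1.42.0, RLE factors, no filter, a stricter filter, a fit of only the groups compared, a replicate block and leaving out each library. The fit was tested on simulated counts of the first guide against control, in which 100 genes were changed by a fold of 2: it recovered 83 of them in DU145 (14733 genes), 98 in PC3 (14482 genes) and 74 in 22Rv1 (14982 genes). Of 100 changed by a fold of 1.5 it recovered 34, 88 and 22 in the same lines, with 2, 14 and 9 false calls. One marker list is not reported here.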

Additional observations from a re-analysis of the deposited data

Results flagged for a closer look

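Several genes moved in opposite directions in DU145 and PC3 under the same guide, with every guide library above control in one line and below it in the other. With gRNA 2, the log2 fold change in DU145 minus that in PC3 was 2.49 for CXCL1 (0.96 and -1.52) and 4.62 for CXCL8 (3.23 and -1.39). With gRNA 10 it was 1.76 for CXCL6 (0.99 and -0.77) and 3.40 for CXCL8 (2.24 and -1.16). The tables were fitted separately, so the difference between the lines was not tested, and the genes were selected on these contrasts.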

How the results depend on the processing

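Over 15 alternatives per line, 523 of 527 recomputed fold changes of the 6 chemokines kept their sign. For DU145, the count of members called stayed at 5 with gRNA 2 and 6 with gRNA 10 against control in all alternatives but the stricter filter, which left 5 members testable and called 4 and 5 of them, and between the guides it ran from 2 to 5 when a library was left out. With at least 10 counts in every library, which leaves 3 members testable in PC3, 2 members were called there with gRNA 10 and 2 between the guides; the other chemokines called fell to 3 in DU145 with gRNA 10, and to 2 and 2 in PC3 with gRNA 2 and gRNA 10. Under the same filter the co-secreted list had 6 called in DU145 with gRNA 10, and 5 and 7 in PC3, and the neighbours 4 and 2 in 22Rv1. In a fit of only the groups compared, the inducing list had 14 called in DU145 with gRNA 10, the co-secreted list 5 in 22Rv1 with gRNA 10, and the decay factors 3 and 6 in 22Rv1 and 1 and 6 in DU145. With DESeq2, 2 neighbours were called in DU145 with gRNA 2, and RIPK2 in DU145 with gRNA 10 passed (adjusted p = 0.0454). The stricter filter tests fewer genes; otherwise the cause was not tested. Leaving out 1 library moved the inducing list in DU145 with gRNA 10 from 7 to 15, the NF-kB list in 22Rv1 from 7 to 12 with gRNA 1 and from 4 to 12 with gRNA 10, the co-secreted list there from 2 to 5 and from 2 to 5, the decay factors from 3 to 6 and from 1 to 6 in 22Rv1 and from 1 to 5 and from 2 to 5 in DU145, and the neighbours in DU145 with gRNA 2 from 1 to 3. The extremes came from single libraries: the DU145 chemokine count between guides was 2 without gRNA 10 replicate 2 or 3 and 5 without gRNA 2 replicate 3, which also gave 15 for the inducing list, 5 for the decay factors with gRNA 10 and 3 for the neighbours. Leaving out DU145 gRNA 2 replicate 2 gave 5 decay factors and 3 neighbours with gRNA 2, and leaving out control replicate 2 or 3 gave 1 decay factor. In 22Rv1, the NF-kB list reached 12 with gRNA 1 without gRNA 1 replicate 1, and with gRNA 10 had 4 without gRNA 10 replicate 1 and 5 without gRNA 10 replicate 2 or 3 or control replicate 1. There the co-secreted list had 5 for each guide, and the decay factors 6 with gRNA 10, without gRNA 1 replicate 3; the decay factors had 3 with gRNA 1 without control replicate 1 or 3 or gRNA 1 replicate 1, and 1 with gRNA 10 without gRNA 10 replicate 1 or 3. The fitted log2 fold change of CXCL5 in DU145 was 6.22 and 7.39 with gRNA 2 and gRNA 10 without control replicate 2, and 5.55 and 6.71 without control replicate 3. With the replicate block, 87 of 87 results were counted as unchanged, which allows a count of calls to shift a little. For instance, the inducing list in 22Rv1 with gRNA 10 went from 6 to 5 called. The block fit called 5 and 6 members in DU145 and 3 and 4 in PC3. The replicate numbers do not pair the libraries. The correlation of same-numbered libraries was over 0.1 in 3, 1 and 1 of 9 pairs in 22Rv1, DU145 and PC3. Depth limits CXCL2, CXCL3 and CXCL5 in PC3 and all members in 22Rv1.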
